A study of Mus musculus with 9 samples.

Results

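The expression of 10 marker genes of the epicardium and of mesothelium was followed in cardiosphere-derived cells of the mouse epicardium: Wt1, Tcf21, Tbx18, Bnc1 and Ets1, which encode transcription factors, Upk3b, Upk1b and Msln, which encode proteins of the mesothelial surface, Lrp2, which encodes the endocytic receptor megalin, and Krt19, which encodes a keratin of simple epithelia. They were chosen by name, and all 10 were found among the 54532 genes of the deposited table. RNA sequencing covered 3 groups with 3 libraries each. pECDCs were primary, untreated cells grown out of heart tissue of 6-week-old C57BL/6 mice and expanded through cardiospheres, which the labels call P0 and the study's culture methods place at passage 3. iECDCs were pECDCs carrying a lentivirus that expresses human telomerase reverse transcriptase (hTERT) from the CMV promoter, selected with puromycin and sequenced untreated at passage 30. The third group, called SB431542-treated cells here, was exposed to SB431542, a compound that blocks the type I receptor of TGF-β. The labels describe them as iECDCs of passage 30 treated for 3 days, whereas the study's methods name an epithelial clone derived from pECDCs, so these libraries are compared with both other groups below. These comparisons share libraries and are not independent of each other. The labels give heart ventricle as the tissue, and the study's methods give the epicardium, peeled off in pieces. Nothing in the labels says that the libraries of a group came from separate cultures or animals, and p-values then measure the spread between libraries, which may be technical.

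The epicardium is the mesothelial sheet that covers the heart. During development and after injury some of its cells lose their epithelial form under signals such as TGF-β, move into the heart wall and become fibroblasts and mural cells. Wt1, Tcf21 and Tbx18 are the transcription factors most used to trace epicardial cells, whereas the uroplakin Upk3b, Msln and keratins mark the intact mesothelial sheet and tend to be lost when the cells become mesenchymal.

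The counts of a library summed to between 16568306 and 23951392, so 3 counts, taken as the detection floor, stand for at most 1.81e-05% of a library. Floors cover counting error only. A pair of libraries stood apart from the others of their group. For gene counts within a group, chi-square per degree of freedom was 71.5 and 70.3 between SB431542 replicate 2 and the other treated libraries, against 3.79 between these. For iECDC replicate 3 it was 30.8 and 24.9, against 4.61 between replicates 1 and 2, and in pECDCs it was 2.70 to 4.23. SB431542 replicate 2 had higher levels of 4 of the 5 TGF-β target genes reported than the other treated libraries, and a lower level of Tgfbi (2.06 FPKM against 10 and 8.98). Ctgf, which encodes a matricellular protein, had 27.4, 70.9 and 30.7 FPKM (fragments scaled to the length of the gene and the depth of the library) in SB431542 replicates 1, 2 and 3, against a mean of 444 ± 13.9 (SD, n = 3) in iECDCs. Counts and calls for the 10 markers, and some counts of the other lists, are given with and without them.

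Apart from Krt19, epithelial markers were at or near 0. Epcam, Cdh1, Krt8, Krt18, Cldn4 and Esrp1 had between 0 and 4 counts in every library. Krt8 and Krt18 have many near-identical pseudogenes, and how the reads of such copies were counted is not given in the sources used here. Of the 24 further mesothelial genes that were listed beside the 10 markers, Muc16, Krt7, Calb2, Dmkn and Rspo1 had between 0 and 2 counts in every library, whereas Pdpn, Aldh1a1, Anxa8, Efemp1 and C3 reached means of 53.5, 18.2, 15.9, 12.5 and 8.21 FPKM in pECDCs. Endothelial markers summed to at most 0.168 FPKM in any library. Of the cardiomyocyte markers only Tnnt2 passed 4 counts in a library, and of the haematopoietic markers Ptprc and Itgam stayed at 0 to 4 counts while Csf1r had 260 to 679 counts. The 7 fibroblast markers summed to 619 to 1370 FPKM over the 9 libraries, nearly all of it from the collagen genes Col1a1, Col1a2 and Col3a1, whereas Lum had 0 to 8 and Postn 0 to 12 counts and Dcn was under 1 FPKM in pECDCs and iECDCs. The label of epicardial or mesothelial cells was thus met for some of the 10 genes and not for others, and the levels are given for each gene below.

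Of the 10 markers, 3 were expressed at high levels and 7 were rare. In pECDCs the order of mean FPKM was Tbx18, Krt19, Ets1, Tcf21, Upk1b, Bnc1, Lrp2, Msln, Upk3b and Wt1. The ranges of the 3 libraries overlapped between Tbx18 and Krt19, between Tcf21 and Upk1b, between Lrp2 and Msln and between Msln and Upk3b, and not between the other neighbours. Tbx18 lay above 87.9% of the 23405 genes with a count in pECDCs and Krt19 above 87.5%, whereas Wt1 lay above 22.0%. In iECDCs Krt19 led, followed by Tbx18 and Ets1 without overlap, and Bnc1 and Wt1 were at the foot of the order, above 7.71% and 7.02% of 22445 genes. In SB431542-treated cells Tbx18, Krt19 and Ets1 still led, and Upk3b stood at the fifth place, against the seventh in iECDCs. In iECDCs and treated cells, each gene from Tcf21 downwards overlapped in range with the next in the order.

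**Figure D1:**
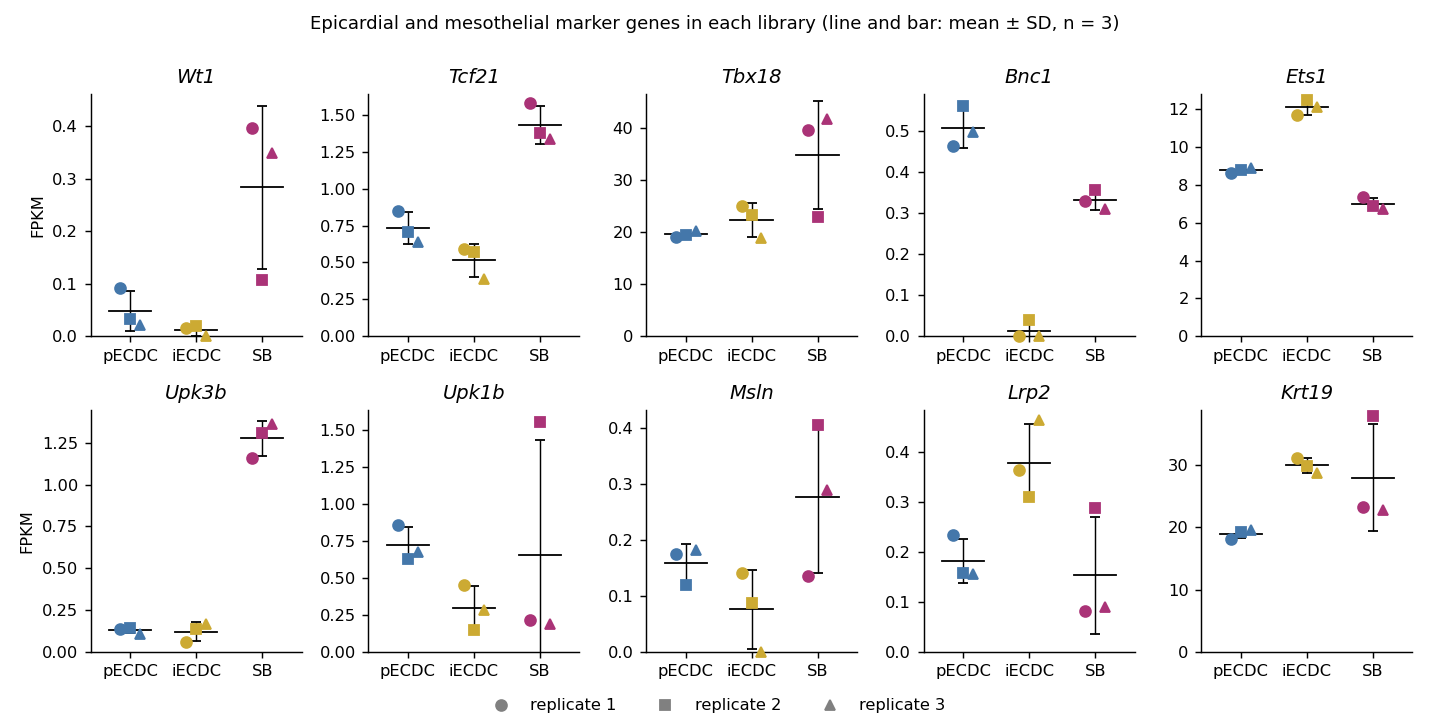
FPKM of the 10 marker genes in each library of pECDCs, iECDCs and SB431542-treated cells (SB), each panel on its own linear axis from 0, with circles, squares and triangles for replicates 1, 2 and 3 and a line and bar for the mean ± SD of 3 libraries. Upk3b and Tcf21 were higher in all 3 treated libraries than in every other library, Bnc1 was near 0 in iECDCs, and the treated square stood apart for Wt1, Tbx18, Upk1b, Lrp2 and Krt19.

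Between pECDCs and iECDCs, Bnc1 and Upk1b were lower and Ets1, Krt19 and Lrp2 higher in iECDCs. Of the 10 markers, 7 had enough counts to be tested, and 3 of these were higher and 2 lower in iECDCs at an adjusted p under 0.05, against 7.21% higher and 9.21% lower among the 13752 genes tested. The median log2 fold change of the 7 was 0.18, beside 0.00 over all genes tested. In SB431542-treated cells against iECDCs, 8 markers could be tested, of which Upk3b, Bnc1, Wt1 and Tcf21 were higher and Ets1 was lower, against 16.0% higher and 14.0% lower among all 13559 genes. Their median was 1.06, beside 0.00 over all genes tested. Against pECDCs, 9 could be tested, of which Upk3b, Wt1, Tcf21 and Tbx18 were higher and Bnc1 and Ets1 lower, against 17.9% higher and 17.0% lower among 14015 genes. Here the median was 0.57, beside 0.01. These are medians over the markers that had enough counts, not over all 10. Wt1, Bnc1 and Upk3b had at most 2, 3 and 9 counts in an iECDC library. They passed the filter against iECDCs through the treated libraries. Wt1 and Upk3b, with at most 14 and 12 counts in a pECDC library, passed it against pECDCs through the treated libraries as well. In the first comparison Bnc1 and Upk1b passed it through pECDCs. These counts and medians are thus partly set by the filter. With at least 10 counts in every library, 5 were tested in treated cells against iECDCs. Tcf21 was then higher and Ets1 lower, beside 2008 higher and 1694 lower of 12456 genes. Against pECDCs 6 were tested under this filter. Tbx18 and Tcf21 were higher and Bnc1 and Ets1 lower, beside 2313 higher and 2187 lower of 12772 genes. Without SB431542 replicate 2, 8 of 8 markers tested passed against iECDCs, 5 higher and 3 lower with a median of 1.18, while 25.3% of all genes were higher and 24.8% lower. Against pECDCs 9 of 9 then passed, 5 higher and 4 lower with a median of 0.29, against 31.7% of all genes higher and 32.3% lower. Without iECDC replicate 3, 6 of 8 passed between iECDCs and pECDCs, 4 higher and 2 lower, with 15.5% and 16.2% of all genes, and the median was -0.03. In treated cells against iECDCs 5 of 10 then passed, 4 higher and 1 lower with a median of 1.18, beside 13.5% and 11.9% of all genes.

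**Figure D2:**
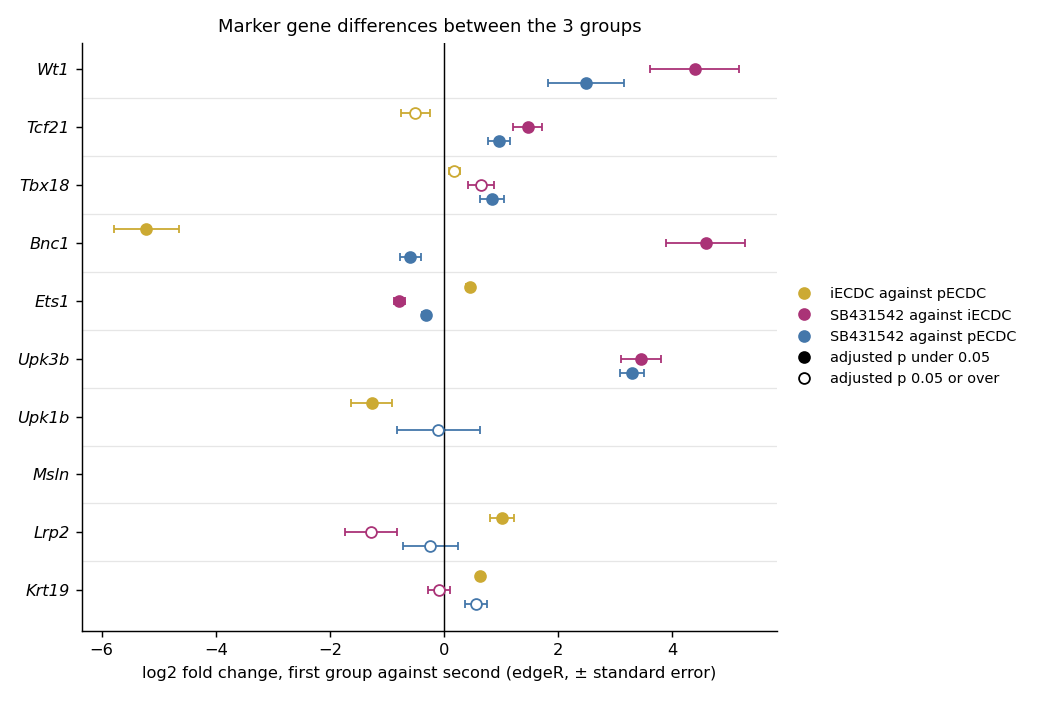
Log2 fold change of each marker gene between the groups, with its standard error, from edgeR on 3 libraries a group. Filled points had an adjusted p under 0.05, open points did not, and genes with too few counts to be tested in a comparison have no point. Bnc1 lay at -5.22 in iECDCs against pECDCs and at 4.59 in SB431542-treated cells against iECDCs, and Upk3b lay at 3.45 and 3.29 in the treated cells against the other groups.

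Wt1, a zinc finger factor needed for the formation of the epicardium and of the kidney, was the rarest of the 10 in pECDCs and iECDCs and the eighth in treated cells, above Msln and Lrp2 (chromosome 2, 105126529 to 105173616, plus strand, 6195 exonic bases). Its counts were 14, 4 and 3 in pECDC replicates 1, 2 and 3, 2, 2 and 0 in iECDCs, and 43, 14 and 39 in SB431542-treated cells. All iECDC libraries were at or under the floor of 3 counts, and the treated library with the lowest count tied in counts with the highest pECDC library. In FPKM the mean was 0.0484 ± 0.0383 in pECDCs (SD, n = 3), 0.0119 ± 0.0104 in iECDCs and 0.284 ± 0.155 in treated cells, and the treated libraries, at 0.107 to 0.396 FPKM, did not overlap the pECDC libraries, at 0.0207 to 0.0921 FPKM. Against the floor, the mean level of treated cells was at least 10-fold higher than that of iECDCs, and the fitted log2 fold change was 4.40 (SE 0.780, adjusted p = 0.00615), which depends on the prior count. Against pECDCs the ratio of means was 5.86 and the log2 fold change 2.49 (SE 0.661, adjusted p = 0.0257). The call against pECDCs was lost without pECDC replicate 2 or 3 and without SB431542 replicate 1 or 3 (adjusted p = 0.0948, 0.0945, 0.0840 and 0.0767). It was also lost with limma on log2(FPKM + 1) (adjusted p = 0.0561). Even in the treated library with the most counts, Wt1 had 43 of 17063137 counts. Wt1 did not pass the filter between pECDCs and iECDCs (adjusted p = 0.134 with no filter and 0.331 with all 9 libraries in the fit), where the mean of pECDCs was at least 1.71-fold above the iECDC floor.

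Tcf21, a basic helix-loop-helix factor of epicardial cells bound for the fibroblast fate, was higher in SB431542-treated cells than in either other group (chromosome 10, 22817281 to 22820174, minus strand). Its counts were 49, 33 and 35 in pECDCs, 28, 22 and 14 in iECDCs, and 65, 68 and 57 in treated cells. No library of the treated group overlapped with another group, whether in counts or in FPKM, and SB431542 replicate 2 lay between the other treated libraries in FPKM. The means were 0.731 ± 0.109 FPKM in pECDCs (SD, n = 3), 0.516 ± 0.111 in iECDCs and 1.43 ± 0.127 in treated cells. The log2 fold change was 1.47 against iECDCs (SE 0.255, adjusted p = 0.00565) and 0.97 against pECDCs (SE 0.193, adjusted p = 0.00911), and both calls held under every alternative that was run. Between iECDCs and pECDCs it was -0.50 (SE 0.247, adjusted p = 0.201), with no overlap between the libraries of these groups in FPKM. An antisense gene, Gm10824, lies over Tcf21 but shares none of its exonic bases.

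Tbx18, a T-box factor of the embryonic epicardium and of the sinus node, was the most abundant of the 10 in pECDCs and treated cells (chromosome 9, 87702800 to 87731260, minus strand). The libraries held 2197, 1836 and 2232 counts in pECDCs, 2384, 1803 and 1366 in iECDCs, and 3281, 2274 and 3564 in treated cells. On the FPKM scale these were 19.0, 19.5 and 20.3, then 25, 23.2 and 18.8, then 39.7, 22.9 and 41.8. SB431542 replicate 2 lay within the range of the iECDC libraries, and the other treated libraries lay above all others. The log2 fold change of treated cells was 0.65 against iECDCs (SE 0.228, adjusted p = 0.0626) and 0.84 against pECDCs (SE 0.214, adjusted p = 0.0228). Without SB431542 replicate 2 these were 0.87 (adjusted p = 0.000429) and 1.06 (adjusted p = 3.32e-13). The difference from iECDCs was also called with DESeq2 (adjusted p = 0.0232), with no filter (0.0031) and with all 9 libraries in the fit (0.0246). Leaving out any other library ended the call against pECDCs, with adjusted p between 0.0715 and 0.0856 without pECDC replicate 1, 2 or 3 or SB431542 replicate 1 or 3. Between iECDCs and pECDCs it was 0.18 (SE 0.10, adjusted p = 0.257), and 0.29 (adjusted p = 0.00031) without iECDC replicate 3, the lowest of the iECDC libraries. Tbx18 shares 970 of its exonic bases (20.6%) with D030062O11Rik on the opposite strand, which had 3 to 49 counts, and whether counting used the strand is not given in the sources used here.

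Bnc1, which encodes basonuclin 1, a zinc finger protein of basal keratinocytes, germ cells and mesothelium, was nearly lost from iECDCs (chromosome 7, 81966672 to 81992292, minus strand). It had 53, 52 and 54 counts in pECDCs, 0, 3 and 0 in iECDCs, and 27, 35 and 26 in treated cells. The 3 groups did not overlap in counts or FPKM. Mean FPKM was 0.508 ± 0.0494 in pECDCs (SD, n = 3), 0.0131 ± 0.0227 in iECDCs, where every library was at or under the floor, and 0.333 ± 0.0243 in treated cells. The level was at least 13.5-fold lower in iECDCs than in pECDCs, and at least 8.82-fold higher in treated cells than in iECDCs. The fitted log2 fold changes, which depend on the prior count, were -5.22 (SE 0.567, adjusted p = 0.000444) and 4.59 (SE 0.694, adjusted p = 0.00334), and both calls held in all alternatives that could test the gene. Treated cells lay below pECDCs by a log2 fold change of -0.59 (SE 0.187, adjusted p = 0.0447), a call lost in 9 of 15 alternatives, among them the omission of pECDC replicate 1, 2 or 3 or of SB431542 replicate 1 or 3 (adjusted p = 0.101 to 0.156). The pseudogene 4833418N17Rik shares 98 exonic bases (2.11%) with Bnc1 on the opposite strand and had at most 2 counts.

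Ets1, an ETS-domain factor expressed in epicardium-derived, endothelial and lymphoid cells, moved the other way (chromosome 9, 32636221 to 32757820, plus strand). Its level was 8.65, 8.78 and 8.88 FPKM in pECDCs, 11.7, 12.5 and 12.1 in iECDCs, and 7.34, 6.87 and 6.73 in treated cells, from 1031 to 2006 counts a library. The groups did not overlap, and neither library that stood apart overall did so for Ets1. iECDCs were above pECDCs by a log2 fold change of 0.45 (SE 0.058, adjusted p = 0.00109). Treated cells fell below iECDCs, at -0.78 (SE 0.094, adjusted p = 0.00149), and below pECDCs, at -0.32 (SE 0.065, adjusted p = 0.0101). The last call was lost without pECDC replicate 2 (adjusted p = 0.0520) or 3 (adjusted p = 0.0532). Among the 5 endothelial markers no library had more than 10 counts for any gene.

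Upk3b, a uroplakin of the bladder lining that is also expressed by mesothelial cells, rose in all treated libraries (chromosome 5, 136038496 to 136046487, plus strand). It had 12, 10 and 9 counts in pECDCs, 4, 8 and 9 in iECDCs, and 72, 97 and 87 in treated cells. The treated libraries, at 1.16 to 1.36 FPKM, were far above every other library, none of which passed 0.166 FPKM, and SB431542 replicate 2 lay between the others. Treated cells were 10.7-fold above iECDCs and 9.83-fold above pECDCs in mean FPKM. The log2 fold change was 3.45 against iECDCs (SE 0.349, adjusted p = 0.000912) and 3.29 against pECDCs (SE 0.210, adjusted p = 0.00016), and both calls held in all alternatives that could test the gene. Between pECDCs and iECDCs, at means of 0.130 ± 0.0182 and 0.120 ± 0.0570 FPKM (SD, n = 3), the libraries overlapped and the gene did not pass the filter, with an adjusted p of 0.536 to 0.922 in the alternatives that tested it.

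The promoter sequences of 5 of the 10 markers (Bnc1, Lrp2, Tbx18, Tcf21 and Upk3b) were in the RefSeq promoter table for GRCm38.p6, each running from 250 bases before the gene's start to 50 bases after it. Of the 4 markers called higher in treated cells than in iECDCs, Bnc1, Tcf21 and Upk3b are among these, and their promoters are shown, 5′ to 3′ on the strand of the gene, because these genes rose together and their promoters differ in CG content. Capitals mark CG dinucleotides. They lie at chr7:81992250-81992549 on the minus strand for Bnc1, chr10:22820094-22820393 on the minus strand for Tcf21 and chr5:136038246-136038545 on the plus strand for Upk3b.
Bnc1: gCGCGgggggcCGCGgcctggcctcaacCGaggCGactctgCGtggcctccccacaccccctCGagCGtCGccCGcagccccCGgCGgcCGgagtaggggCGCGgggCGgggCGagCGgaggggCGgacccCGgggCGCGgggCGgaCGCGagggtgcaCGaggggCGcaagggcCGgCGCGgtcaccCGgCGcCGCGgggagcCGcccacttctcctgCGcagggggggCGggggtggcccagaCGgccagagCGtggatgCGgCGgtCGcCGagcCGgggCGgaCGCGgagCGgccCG
Tcf21: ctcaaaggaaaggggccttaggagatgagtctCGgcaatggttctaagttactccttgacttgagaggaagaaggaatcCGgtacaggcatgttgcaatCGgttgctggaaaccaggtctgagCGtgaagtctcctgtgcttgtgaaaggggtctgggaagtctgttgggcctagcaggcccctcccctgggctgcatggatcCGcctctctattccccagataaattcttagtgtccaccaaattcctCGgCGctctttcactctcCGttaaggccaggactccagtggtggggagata
Upk3b: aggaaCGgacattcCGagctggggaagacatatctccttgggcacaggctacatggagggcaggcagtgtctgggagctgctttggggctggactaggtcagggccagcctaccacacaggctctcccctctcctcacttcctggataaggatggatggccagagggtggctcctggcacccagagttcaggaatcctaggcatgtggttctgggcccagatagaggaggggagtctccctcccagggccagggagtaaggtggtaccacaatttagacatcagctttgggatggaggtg
The Bnc1 promoter held 50 CG dinucleotides, more than 99.1% of the 32851 promoters of the table, and had a GC content of 83.3%. Tcf21 held 8, near the median of 7, and Upk3b held 2, more than 14.1% of promoters. Between these lay Tbx18 with 15 and Lrp2 with 20.

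Searched on both strands, CAGACA, a SMAD binding element, occurred once in the Upk3b and once in the Lrp2 promoter and in 21.0% of all promoters of the table. GCGTGGGAG, a motif shared by WT1 and EGR factors, was found in none of the 5 windows and in 0.472% of all promoters. CANNTG, the E-box of basic helix-loop-helix factors such as TCF21, matched 2 times in Lrp2 and 1 time each in Tbx18 and Upk3b, and it occurred in 72.3% of all promoters. These matches describe letters in the windows only.

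Upk1b, a uroplakin of the tetraspanin family that is expressed in urothelium and mesothelium, depended on single libraries (chromosome 16, 38773184 to 38800328, minus strand). Its counts were 44, 26 and 33 in pECDCs, 19, 5 and 9 in iECDCs, and 8, 68 and 7 in treated cells. SB431542 replicate 2 was the highest of all 9 libraries and the other treated libraries were among the lowest. iECDCs were below pECDCs, with means of 0.292 ± 0.153 and 0.720 ± 0.123 FPKM (SD, n = 3) and a log2 fold change of -1.27 (SE 0.358, adjusted p = 0.0413). That call was lost without pECDC replicate 1, 2 or 3 or iECDC replicate 2 (adjusted p = 0.162, 0.0926, 0.111 and 0.0971) and with all 9 libraries in the fit (adjusted p = 0.369). Treated cells against pECDCs gave -0.10 (SE 0.726, adjusted p = 0.925), and without SB431542 replicate 2 gave -1.82 (adjusted p = 0.000302). Against iECDCs the gene did not pass the filter on low counts, and in the 6 alternatives that tested it the adjusted p was 0.133 to 0.557. Of the other uroplakin genes, Upk3a and Upk3bl had 0 counts in every library, Upk2 had 3 counts in iECDC replicate 3 and 0 elsewhere, and Upk1a had 7 to 14 counts and log2 fold changes of 0.20 in iECDCs against pECDCs, -0.50 in treated cells against iECDCs and -0.30 against pECDCs, with no adjusted p under 0.05 from edgeR or DESeq2 and none unadjusted from either tool.

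Msln, which encodes mesothelin, a cell surface glycoprotein that names the mesothelium, was barely detected (chromosome 17, 25748614 to 25754327, minus strand). The counts were 9, 5 and 9 in pECDCs, 6, 3 and 0 in iECDCs, and 5, 18 and 11 in treated cells. The ranges of the treated cells overlapped those of both other groups, and SB431542 replicate 2 was the highest library. Msln passed the filter on low counts in none of the comparisons. In the alternatives that tested it, its adjusted p with edgeR was 0.0635 to 0.215 for treated cells against iECDCs, 0.0797 to 0.409 against pECDCs and 0.461 between iECDCs and pECDCs.

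Lrp2, which encodes megalin, a large endocytic receptor of absorptive epithelia that is also present in mesothelial cells, was higher in iECDCs than in pECDCs (chromosome 2, 69424340 to 69586065, minus strand, 16701 exonic bases). It had 96, 53 and 61 counts in pECDCs, 123, 85 and 119 in iECDCs, and 24, 101 and 27 in treated cells. In FPKM the iECDC libraries, at 0.310 to 0.464, lay above the pECDC libraries, at 0.156 to 0.234, and SB431542 replicate 2, at 0.288, lay apart from the other treated libraries, at 0.0819 and 0.0895. The log2 fold change of iECDCs against pECDCs was 1.02 (SE 0.214, adjusted p = 0.0124), and the call was lost without pECDC replicate 2 (adjusted p = 0.0633) or 3 (adjusted p = 0.0669) and with all 9 libraries in the fit (adjusted p = 0.195). Treated cells against iECDCs gave -1.28 (SE 0.455, adjusted p = 0.0652), and without SB431542 replicate 2 they were lower, at -2.13 (adjusted p = 0.000186). Against pECDCs the values were -0.24 (SE 0.484, adjusted p = 0.727) and, without that library, -1.09 (adjusted p = 0.00105). The difference from iECDCs was also called with DESeq2 (adjusted p = 0.0175), no filter (0.00155), all 9 libraries in the fit (0.0326) and the replicate block (0.0445).

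Krt19, a type I keratin of simple epithelia, ducts and mesothelium, was abundant in all groups (chromosome 11, 100140810 to 100148665, minus strand). Its level was 18.2, 19.3 and 19.5 FPKM in pECDCs, 31.2, 29.9 and 28.8 in iECDCs, and 23.3, 37.9 and 22.8 in treated cells. All iECDC and treated libraries lay above the pECDC libraries, and SB431542 replicate 2 lay above the iECDC libraries while the other treated libraries lay below them. iECDCs exceeded pECDCs by a log2 fold change of 0.64 (SE 0.068, adjusted p = 0.000374), a call lost with all 9 libraries in the fit (adjusted p = 0.0632). Treated cells gave -0.09 against iECDCs (SE 0.191, adjusted p = 0.754) and 0.57 against pECDCs (SE 0.192, adjusted p = 0.0560). Without SB431542 replicate 2 these were -0.37 (adjusted p = 0.00784) and 0.29 (adjusted p = 0.000573), and without SB431542 replicate 3 the value against pECDCs was 0.70 (adjusted p = 0.0481). The difference from pECDCs was also called with DESeq2 (adjusted p = 0.0237), with no filter (0.0266) and with all 9 libraries in the fit (0.0289). Krt19 stood alone among the 54 keratin genes of the table, a comparison made after its values were seen. It was the only keratin gene with more than 100 counts in any library, and only Krt10, at up to 89 counts, and Krt80, at up to 62, also passed 10 counts.

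Of the 24 further mesothelial genes, 9 were tested between iECDCs and pECDCs, and 7 were lower in iECDCs while the other 2 also lay below 0, with a median log2 fold change of -0.98 beside 0.00 over all genes tested, of which 9.21% were lower. In treated cells against iECDCs, 8 of 10 tested were higher and 1 lower, with a median of 2.36, against 16.0% higher and 14.0% lower among all genes. Against pECDCs, 5 of 13 were higher and 4 lower, with a median of 1.24, against 17.9% and 17.0%. Without SB431542 replicate 2 these counts were 12 higher and 1 lower of 13 against iECDCs (25.3% and 24.8% of all genes), and 10 higher and 4 lower of 14 against pECDCs (31.7% and 32.3%). Without iECDC replicate 3, 9 of 10 tested were lower in iECDCs than in pECDCs, beside 16.2% of all genes. Prg4, Nkain4 and Gpm6a had at most 7, 10 and 4 counts in an iECDC library. They passed the filter against iECDCs through the treated libraries. Pdpn and Efemp1, with at most 13 and 5 counts in an iECDC library, passed it through pECDCs. In treated cells against pECDCs, Gpm6a and Nkain4, with at most 2 and 9 counts in a pECDC library, passed it through the treated libraries. Pdpn and Efemp1, with at most 4 and 24 counts in a treated library, passed it there through pECDCs. The counts and medians of this list are thus partly set by the filter.

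Pdpn, which encodes podoplanin, a mucin-like surface protein of mesothelium and lymphatic vessels, showed the largest decrease of the list. It fell from 53.5 ± 3.33 FPKM in pECDCs (SD, n = 3) to 0.243 ± 0.125 in iECDCs, a log2 fold change of -7.71 (SE 0.175, adjusted p = 1.04e-07), and stayed at 1, 4 and 3 counts in treated cells. Efemp1, which encodes the matrix protein fibulin-3, fell from 12.5 ± 0.936 to 0.0903 ± 0.0794 FPKM (log2 fold change -7.01, SE 0.289, adjusted p = 1.66e-06). Anxa8, which encodes an annexin, fell from 15.9 ± 0.458 to 0.814 ± 0.271 FPKM (-4.33, SE 0.177, adjusted p = 1.66e-06), and Sema3d, which encodes a secreted semaphorin of the epicardium, from 2.30 ± 0.0612 to 0.937 ± 0.273 FPKM (-1.30, SE 0.179, adjusted p = 0.00167). For Pdpn, Efemp1 and Anxa8 the pECDC libraries, with 548 counts or more, were far above all other libraries.

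**Figure D3:**
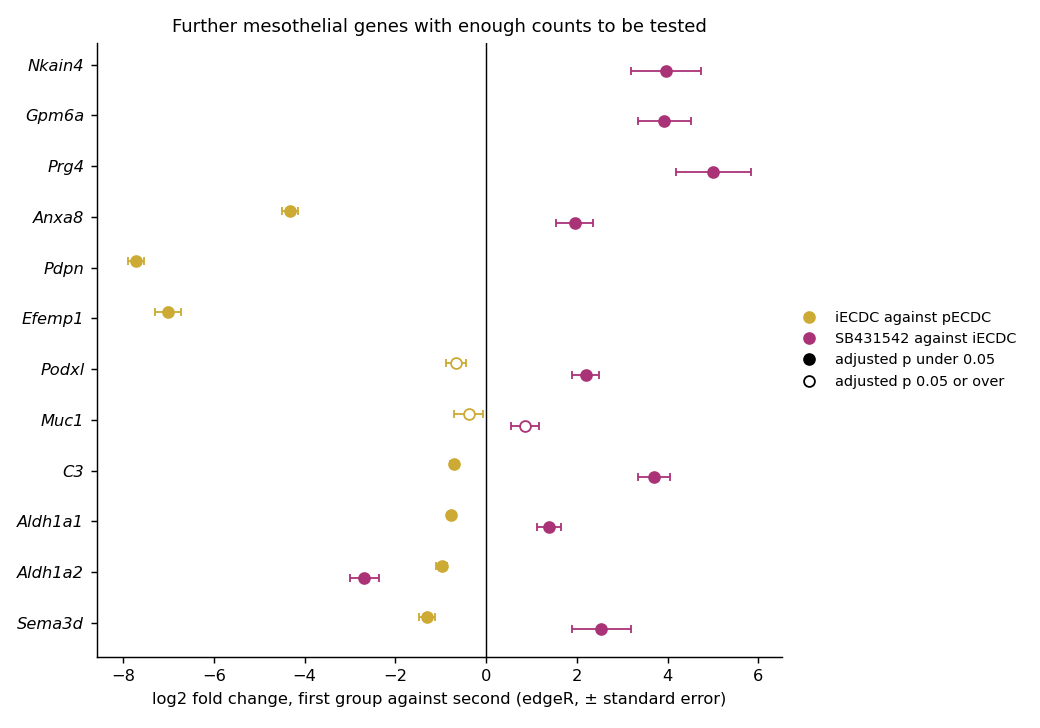
Log2 fold change with standard error (edgeR, 3 libraries a group) of the further mesothelial genes that could be tested in iECDCs against pECDCs or in SB431542-treated cells against iECDCs, filled where the adjusted p was under 0.05. All 9 genes tested lay below 0 in iECDCs against pECDCs, from -7.71 for Pdpn, and Aldh1a2 at -2.68 was the only tested gene below 0 in treated cells against iECDCs.

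In treated cells against iECDCs the named increases were those of Prg4, Nkain4 and C3. Prg4, which encodes the surface lubricant lubricin, had 4, 2 and 7 counts in iECDCs and 203, 39 and 205 in treated cells, a log2 fold change of 5.01 (SE 0.825, adjusted p = 0.00468). Nkain4, which encodes a membrane protein that interacts with the sodium pump, rose from 0.326 ± 0.189 to 5.01 ± 3.34 FPKM (SD, n = 3; 3.97, SE 0.773, adjusted p = 0.00863), with 152, 30 and 154 counts in the treated libraries. C3, which encodes complement component C3, rose from 5.05 ± 0.330 to 64.8 ± 28.7 FPKM (3.70, SE 0.353, adjusted p = 0.000732), with 3437 counts in SB431542 replicate 2 and 7222 and 7681 in the others. For each of these genes replicate 2 was the lowest of the treated libraries and still above every iECDC library. Aldh1a2, a retinoic acid-forming enzyme of the epicardium, was highest in pECDCs at 5.50 ± 0.356 FPKM, lower in iECDCs at 2.82 ± 0.349 (log2 fold change -0.98, SE 0.124, adjusted p = 0.00106) and lower again in treated cells at 0.429 ± 0.176 (-2.68 against iECDCs, SE 0.315, adjusted p = 0.00138, and -3.65 against pECDCs, SE 0.260, adjusted p = 0.000235). Pdpn and Efemp1 were below pECDCs in treated cells, at -9.36 (SE 0.186, adjusted p = 2.98e-06) and -4.75 (SE 0.316, adjusted p = 0.000182), whereas Nkain4 was above them, at 4.23 (SE 0.762, adjusted p = 0.0064).

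The regulators that the epicardium shares with other heart tissue had median log2 fold changes of -0.28 in iECDCs against pECDCs, 0.17 in treated cells against iECDCs and -0.24 in treated cells against pECDCs. Of 10 such genes, 5 of 8 tested were lower in iECDCs than in pECDCs, beside 9.21% of all genes. Without iECDC replicate 3, 6 of 9 were lower, beside 16.2% of all genes. The named ones of the 5 were Nr2f1 (-0.85, SE 0.144, adjusted p = 0.00473), Nfatc1 (-0.51, SE 0.110, adjusted p = 0.0146), Tbx5 (-0.50, SE 0.110, adjusted p = 0.0162) and Hand2 (-0.33, SE 0.066, adjusted p = 0.0101), all values being log2 fold changes. In treated cells against iECDCs, where 16.0% of all genes were higher and 14.0% lower, 1 of 8 was higher, Gata6, a zinc finger factor (0.79, SE 0.232, adjusted p = 0.035; 23.2, 11.6 and 21.0 FPKM in the treated libraries against at most 11.1 in iECDCs), and 1 lower, Tbx20, a T-box factor (-0.68, SE 0.135, adjusted p = 0.00899). Against pECDCs, where 17.9% of all genes were higher and 17.0% lower, 0 of 9 were higher and 2 lower. These were Tbx20 (-0.86, SE 0.101, adjusted p = 0.0015) and Nr2f1, a nuclear receptor (-0.35, SE 0.096, adjusted p = 0.0303). Leaving out SB431542 replicate 2, the counts were 3 higher and 2 lower of 8 against iECDCs, beside 25.3% and 24.8% of all genes. Against pECDCs they were then 1 higher and 4 lower of 9, beside 31.7% and 32.3%. With iECDC replicate 3 left out as well, they were 5 higher and 2 lower against iECDCs, where 32.6% and 31.9% of all genes passed. Gata5 had 0 counts in every library.

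TGF-β target genes were read as the check of the inhibitor. Of the 5 reported, 4 were lower and 1 higher in treated cells than in iECDCs, beside 14.0% and 16.0% of all genes. Skil and Smad7 encode feedback inhibitors of the pathway. The log2 fold changes were -3.36 for Ctgf (SE 0.356, adjusted p = 0.00102), -2.14 for Skil (SE 0.179, adjusted p = 0.000466), -1.78 for Smad7 (SE 0.223, adjusted p = 0.00176) and -4.40 for Ltbp2 (SE 0.973, adjusted p = 0.0133). Tgfbi was higher, at 3.53 (SE 0.562, adjusted p = 0.00405), and it was lower in iECDCs than in pECDCs, at -2.74 (SE 0.243, adjusted p = 0.00014). Against pECDCs, where 17.0% of all genes were lower, Ctgf, Skil, Smad7 and Ltbp2 were lower, at -5.22 to -1.35. Tgfbi gave 0.79 there (SE 0.533, adjusted p = 0.282). Without SB431542 replicate 2, 1 of the 5 was called higher and 4 lower against pECDCs, beside 31.7% and 32.3% of all genes. Between iECDCs and pECDCs, where 7.21% of all genes were higher in iECDCs and 9.21% lower, Ctgf and Smad7 were higher in iECDCs, at 0.44 and 0.41 (adjusted p = 0.00176 and 0.00197). Skil and Ltbp2 gave 0.07 and -0.85 (adjusted p = 0.514 and 0.118). Ltbp2 had 6.18 FPKM in iECDC replicate 3 and 2.26 and 2.18 in replicates 1 and 2. Without iECDC replicate 3, 2 of the 5 were called higher and 2 lower in iECDCs, beside 15.5% and 16.2% of all genes. For all 4 genes that fell, SB431542 replicate 2 was the highest of the treated libraries, as for Ctgf above. Ltbp2, which encodes a latent TGF-β binding protein, had 78 counts there and 1 count in each of the others.

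**Figure D4:**
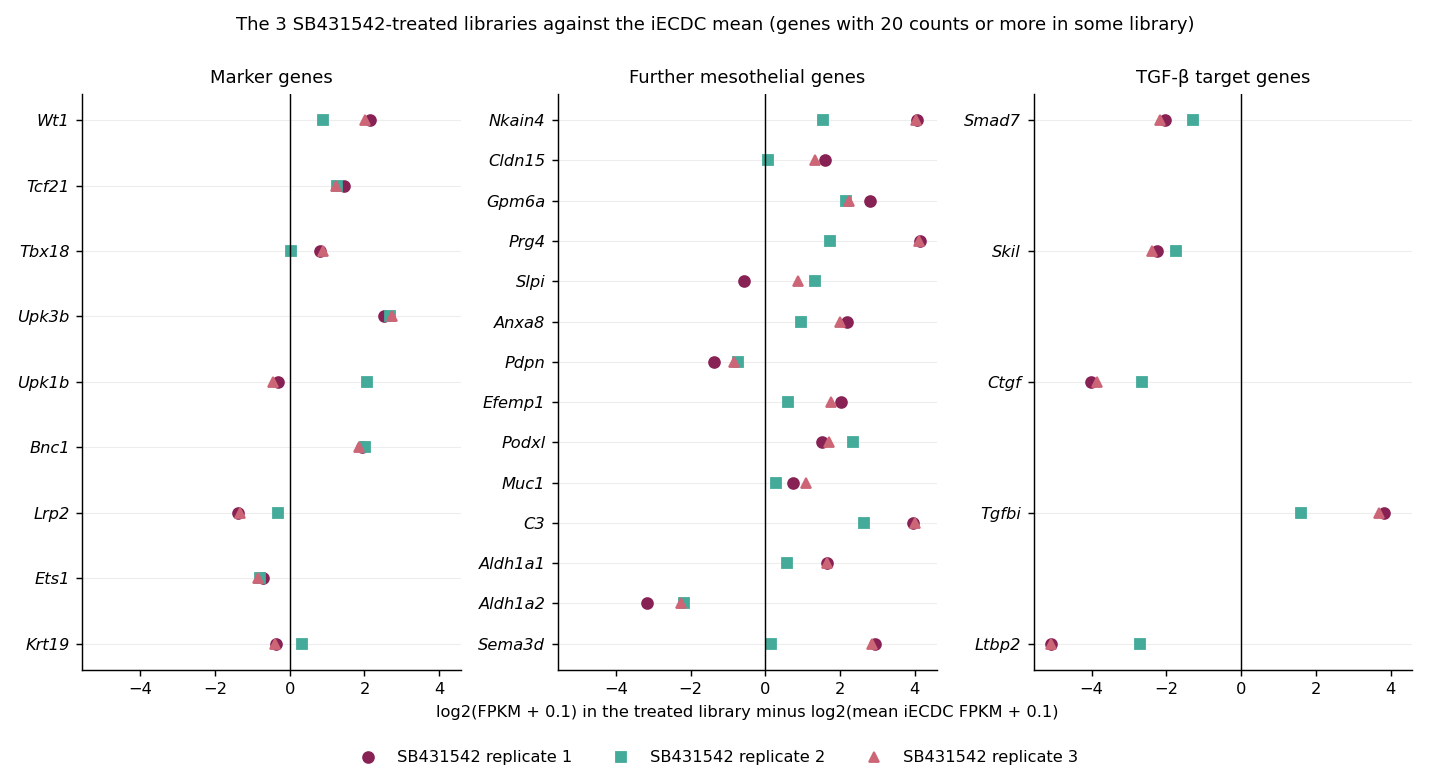
Each SB431542-treated library against the iECDC mean, as the difference of log2(FPKM + 0.1), for the genes of 3 lists with 20 counts or more in some library (circles, squares and triangles for replicates 1, 2 and 3). Upk3b, Tcf21, Bnc1 and Ets1 had all 3 libraries close together, whereas replicate 2 lay apart from the other treated libraries for Wt1, Tbx18, Upk1b, Lrp2 and Krt19 and lay nearest to 0 for the 5 TGF-β target genes.

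The markers thus fell into those with like values in the 3 treated libraries and those for which SB431542 replicate 2 differed. Wt1 and Tbx18 were lower in that library than in replicates 1 and 3, and Upk1b, Lrp2 and Krt19 were higher, as was Msln. The part that the weaker fall of TGF-β target genes in this library had in these values was not tested.

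Markers of mesenchymal cells were read beside these results. The 7 fibroblast markers summed to 1010 to 1040 FPKM in pECDC libraries, 767 to 924 in iECDCs and 619 to 1370 in treated cells, and the 6 smooth muscle markers to 753 to 774, 838 to 1950 and 197 to 363. The fibroblast sums of treated libraries spanned those of both other groups. Of the 5 fibroblast markers tested, 3 were higher in treated cells than in iECDCs, beside 16.0% of all genes. They were Dcn, which encodes decorin, from 0.470 ± 0.0761 to 13.2 ± 8.48 FPKM (SD, n = 3, log2 fold change 4.83, SE 0.636, adjusted p = 0.00205), Col3a1 at 1.51 (SE 0.368, adjusted p = 0.0188) and Pdgfra at 0.96 (SE 0.122, adjusted p = 0.0018). Between iECDCs and pECDCs 4 of 6 tested were lower in iECDCs, beside 9.21% of all genes. Col3a1, Pdgfra and Col1a1 were among them at -0.89, -0.57 and -0.31 (adjusted p = 0.00182, 0.000332 and 0.0459). Against pECDCs, 2 of 5 were higher in treated cells, beside 17.9% of all genes, with Dcn at 4.12 and Pdgfra at 0.40 (adjusted p = 0.00382 and 0.0251). With SB431542 replicate 2 left out, 5 of 5 were higher in treated cells against either group, where 25.3% of all genes were higher against iECDCs and 31.7% against pECDCs. Without iECDC replicate 3, 5 of 6 were lower in iECDCs than in pECDCs, beside 16.2% of all genes. Of the smooth muscle markers, Acta2 was lower in treated cells, at 137, 322 and 137 FPKM, than in iECDCs, at 812, 848 and 1900 (log2 fold change -2.56, SE 0.448, adjusted p = 0.00581). Pdgfrb was higher in treated cells, at 1.23 (SE 0.243, adjusted p = 0.00902). Of the 5 smooth muscle markers tested, 1 was higher and 2 lower in treated cells than in iECDCs, beside 16.0% and 14.0% of all genes. Against pECDCs the log2 fold changes were -1.87 for Acta2 and 0.76 for Pdgfrb (adjusted p = 0.00608 and 0.0494), with 1 of 5 higher and 1 lower, beside 17.9% and 17.0% of all genes. Pdgfrb was lower in iECDCs than in pECDCs, at -0.49 (adjusted p = 0.00102). There 1 of 5 was higher and 1 lower, with a median of 0.63, beside 7.21% and 9.21% of all genes. Without iECDC replicate 3, 2 were higher and 2 lower with a median of -0.39, beside 15.5% and 16.2%. The highest Acta2 level was that of iECDC replicate 3. Tnnt2, a troponin gene, had 1.41 ± 0.280 FPKM in iECDCs and was lower in treated cells, at 0.169 ± 0.111 (-3.07, SE 0.478, adjusted p = 0.00378). It was higher in iECDCs than in pECDCs (1.36, SE 0.194, adjusted p = 0.00202). Cd68 was lower in treated cells than in pECDCs, at -0.86 (SE 0.218, adjusted p = 0.022). In bulk RNA, more cells of a type and more RNA per cell cannot be told apart, and the part that cell composition had in the values of the 10 markers was not tested.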

How the data were processed

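RNA sequencing libraries of pECDCs, iECDCs and SB431542-treated cells (3 each) were grouped by their labels. In the deposited table the authors gave raw read counts for each gene and library, and FPKM values, in which counts are scaled by gene length and library depth. Per the labels, TopHat2 2.0.9, Bowtie2 2.0.6 and mm9 were used, but coordinates in the deposited table are those of GRCm38, with the start and end of GENCODE release M21 for 53499 of 54532 genes. The counting program and its use of strand are not given in the sources used here. The kit is TruSeq in the labels and NEBNext in the study's methods, which also give 2 biological replicates where 3 libraries were deposited. The authors' own columns of fold changes and their p-values, raw and adjusted, were not used.

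Counts were tested across all genes with edgeR 4.0.16 in R 4.3.3 (TMM, filterByExpr with a minimum count of 10 and a total of 15, quasi-likelihood F-test, only the compared groups in the fit, Benjamini-Hochberg adjustment, threshold 0.05). The study used DESeq, and edgeR was taken as the test for counts. The common biological coefficient of variation was 0.0919 for iECDCs against pECDCs, 0.171 for treated cells against iECDCs and 0.144 for treated cells against pECDCs. Where no library of a group had more than 3 counts, the group was treated as being at the detection floor, and a fold against it used 3 counts for each of its libraries. The tests were first tested on simulated data. The alternatives were RLE and upper-quartile normalization, DESeq2 1.42.0, no filter, a minimum of 10 counts throughout, a joint fit of the 9 libraries, a block for the replicate number, limma 3.58.1 on log2(FPKM + 1) or log2(FPKM + 0.1), and leaving out each library. The joint omission of iECDC replicate 3 and SB431542 replicate 2 was added after seeing the data. The markers and lists were chosen with earlier results of these data known. All 10 markers are named, and of each other list the 4 genes with the largest change among those with an adjusted p under 0.05 and a mean of at least 1 FPKM in the higher group, besides the TGF-β target genes and genes overlapping a marker. A single listed gene is not reported here. Other names were chosen after their values were seen or describe absent markers. Promoters came from a RefSeq table for GRCm38.p6. Figures were drawn with matplotlib 3.10.9 in python 3.11.15.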

Additional observations from a re-analysis of the deposited data

How the results depend on the processing

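Of 360 log2 fold changes of single markers recomputed under an alternative, 302 kept their direction and their side of the threshold, 30 lost the call, 21 gained it and 7 changed sign. The 7 were Krt19 in treated cells against iECDCs (0.04 and 0.05 without SB431542 replicate 1 or 3), Upk1b against pECDCs (0.03 without pECDC replicate 1, 0.29 and 0.32 without SB431542 replicate 1 or 3) and Lrp2 against pECDCs (0.06 and 0.03 without SB431542 replicate 1 or 3), none of which were called. Without SB431542 replicate 2 these 3 values were -0.37, -1.82 and -1.09, all called. Over the omission of single libraries, 1036 to 4467 genes and 3 to 6 markers were called between iECDCs and pECDCs, 1707 to 7001 genes and 5 to 8 markers between treated cells and iECDCs, and 2453 to 9188 genes and 2 to 9 markers between treated cells and pECDCs. The highest counts of all genes came without iECDC replicate 3 in the first comparison and without SB431542 replicate 2 in the others. With both of these libraries left out, a choice made after seeing the data, 8951 of 13867 genes and 8 of 8 markers tested were called between treated cells and iECDCs. With at least 10 counts in every library, fewer markers were tested. Between iECDCs and pECDCs 3 of 5 were then called, beside 1997 of 12658 genes. Between treated cells and iECDCs it was 2 of 5, beside 3702 of 12456 genes. Between treated cells and pECDCs it was 4 of 6, beside 4500 of 12772 genes. With all 9 libraries in the fit, 671 of 14210 genes and 2 of 9 markers tested were called between iECDCs and pECDCs. The calls of Krt19, Lrp2 and Upk1b were lost, and the cause was not tested.

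The labels number the replicates alike in each group, but the deviations of libraries with the same number correlated at only -0.21 to 0.09, so the numbers were not taken to pair the libraries. With the replicate number as a block, 1791, 3038 and 3886 genes and 5, 6 and 5 markers were called in the 3 comparisons, against 2258, 4061 and 4881 genes and 5, 5 and 6 markers without it. The block ended the call of Bnc1 between treated cells and pECDCs (adjusted p = 0.102) and added that of Lrp2 between treated cells and iECDCs (adjusted p = 0.0445). Msln in all comparisons, Wt1 and Upk3b between iECDCs and pECDCs and Upk1b between treated cells and iECDCs did not pass the filter on low counts, and none of them was called in an alternative that tested it (lowest adjusted p = 0.0635, for Msln between treated cells and iECDCs with no filter). For a single gene, 3 libraries against 3 allow no exact permutation p under 0.1.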
